A study of Mus musculus with 4 samples.

Results

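Cells carrying transcripts of mural cells, the pericytes and smooth muscle cells that wrap blood vessels, were taken from single-cell RNA sequencing of sorted mouse bone and marrow cells. A cell was counted as a member when the unique molecular identifiers (UMIs, 1 per captured transcript) of Rgs5, Ndufa4l2, Notch3, Myh11 and Kcnj8 summed to at least 2, Cxcl12 was under 50 UMIs per 10000 of the cell's UMIs (CP10k), and the osteocalcin genes Bglap and Bglap2 together were under 100 CP10k. Of 2825 cells with at least 500 genes and under 10% mitochondrial UMIs, 65 met this rule: 23 of 1426 control cells and 42 of 1399 immobilized cells. The mural label held for 14 to 15 of them. The other members carried 1 or 2 kinds of marker transcript at low count, together with genes of stromal, osteoblast or endothelial cells.

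All animals were C57BL/6J mice with the tetracycline transactivator at 1 allele of Tnfsf11, the LC1 transgene (transactivator-driven Cre) and a Cre-activated tdTomato at Rosa26, so that cells with present or past Tnfsf11 activity turn red. Tnfsf11 encodes RANKL, the cytokine that drives osteoclast formation. All received doxycycline from embryonic day 0 to birth. The immobilized animals had 2 weeks of hindlimb immobilization from 8 weeks of age, the control animals none, and femurs and tibias were taken at 10 weeks from both. Sorting kept live tdTomato+ cells of bone and marrow that lacked CD45.2 and Ter119, so both groups were selected on the reporter. Cells of 4 control and of 6 immobilized animals were pooled into 1 library each, sequenced on 2 lanes. With 1 pool per group there is no replicate error, so no test was made. Intervals are exact 95% intervals that cover counting error only, and cells of a pool are not replicates. Lane 1 gave 1620 control and 1751 immobilized barcodes with 10732720 and 9960011 UMIs, and the kept cells had a median of 5592.5 and 5691 UMIs.

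Pericytes lie within the basement membrane of capillaries, and smooth muscle cells ring larger vessels. Both depend on PDGF-B from the endothelium, read by the receptor PDGFRβ, and on NOTCH3 signalling. Rgs5 encodes a regulator of G-protein signalling, Ndufa4l2 a mitochondrial protein, Myh11 the smooth muscle myosin heavy chain, and Kcnj8 the pore of a potassium channel whose regulatory subunit is encoded by Abcc9. In marrow, perivascular cells overlap in part with the CXCL12-abundant reticular stroma, which also holds Notch3 and Pdgfrb transcripts. In mm10 coordinates, Rgs5 lies at chr1:169655501-169695813 (plus strand), Notch3 at chr17:32120820-32166852 (minus strand) and Tnfsf11 at chr14:78277445-78308043 (minus strand).

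The members fell into 2 ranges of marker content with nothing between. Marker UMIs ran from 2 to 8 in 50 cells and were at least 17 in 15 cells, and no member held 9 to 16. A single marker gene was present in 44 cells, 2 marker genes in 6, and at least 3 in 15. The cells with at least 17 marker UMIs were 10 of the 23 control members and 5 of the 42 immobilized members. Rgs5 supplied 1657 marker UMIs from 15 cells, Notch3 249 from 52, Ndufa4l2 143 from 23, Myh11 67 from 15 and Kcnj8 61 from 18. Rgs5 was thus the most abundant marker in few cells, and Notch3 the most widespread at low count.

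**Figure D1:**
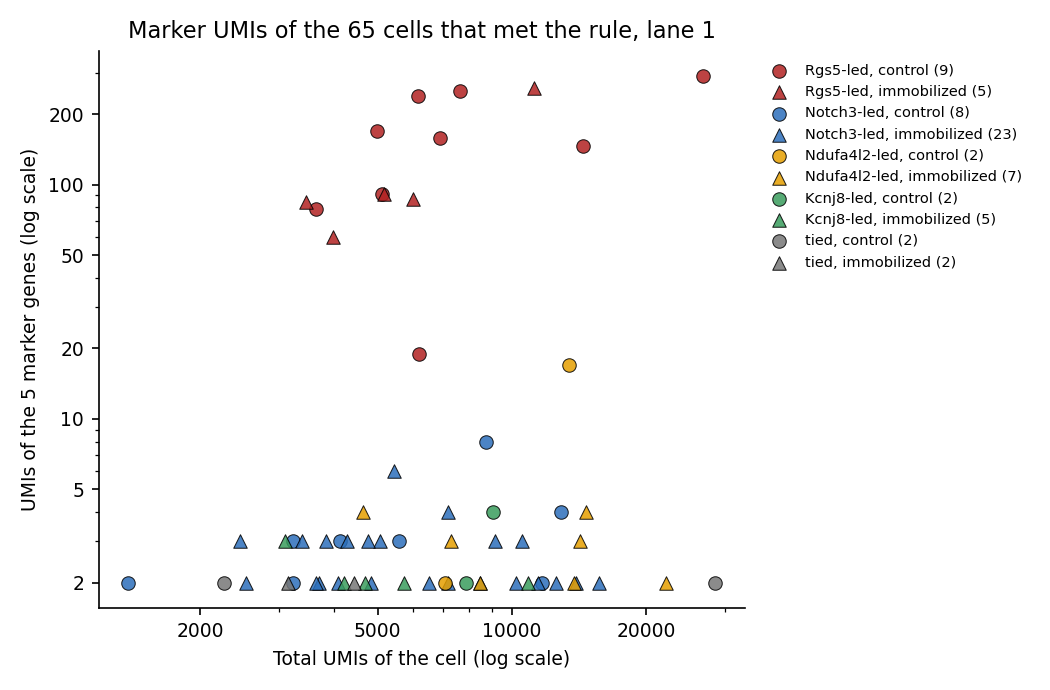
Sum of the UMIs of the 5 marker genes (vertical, log scale) against total UMIs per cell (horizontal, log scale) for the 65 members, 23 control and 42 immobilized. Each point is a cell, coloured by leading marker, with circles for control and triangles for immobilized cells; 15 cells sit at 17 or more marker UMIs and 50 at 2 to 8.

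After these values were seen, the members were grouped by the marker with most UMIs. Rgs5 led in 14 cells, 9 control and 5 immobilized. Notch3 led in 31 cells, 8 control and 23 immobilized, Ndufa4l2 in 9 (2 and 7), Kcnj8 in 7 (2 and 5), and 4 cells were tied (2 and 2). Myh11 led in none. Genes named below within these groups were likewise chosen after their values were seen, and all comparisons of a group with the 2760 remaining kept cells are descriptions, because the members were chosen on the same counts.

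The share of members among kept cells was 1.61% (95% interval 1.03 to 2.41) for the control pool and 3.00% (2.17 to 4.04) for the immobilized one. The Rgs5-led share went the other way, 0.631% (0.289 to 1.19) for control and 0.357% (0.116 to 0.832) for immobilized cells. These intervals overlap in both cases. Rgs5-led cells made up 39.1% of the control members and 11.9% of the immobilized members, so the pools differed in what the members were.

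The limits of the rule set much of this. Exactly 2 marker UMIs were held by 7 control and 22 immobilized members. Just outside, 42 control and 80 immobilized cells within the other limits held 1 marker UMI. Before the Cxcl12 and osteocalcin limits, 170 control cells (11.9%) and 161 immobilized cells (11.5%) had at least 2 marker UMIs. The Cxcl12 limit alone removed 134 and 111 of them and the osteocalcin limit alone 13 and 8. No removed cell had more than 2 Rgs5 UMIs, and Notch3 gave 344 of 413 marker UMIs in the removed control cells and 266 of 334 in the immobilized ones. The member with the most Cxcl12 stood at 48.8 CP10k among control and 49.7 among immobilized cells, and the nearest removed cells at 57.7 and 50.5. The highest osteocalcin in a member was 36.2 and 85.6 CP10k, and the nearest removed cells held 134 and 145.

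Lane 2 reread the same library and gives a check of the counts, not of the animals. All 65 barcodes were present there. Of the Rgs5-led cells, 8 of 9 control and 5 of 5 immobilized were again Rgs5-led members, and the other had 8 UMIs each of Rgs5 and Notch3. Of the other members, 10 of 14 control and 17 of 37 immobilized cells met the rule again. The 2 pools shared 3 barcodes, none of them a member, and Scrublet called 21 control and 7 immobilized barcodes as doublets, none a member.

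In the 14 Rgs5-led cells at least 3 of the mural markers came together, and all 5 in 8 of them. Ndufa4l2 and Notch3 were present in 14 of 14 cells, Myh11 in 13 and Kcnj8 in 8, and marker UMIs per cell ran from 19 to 291 with a median of 118.5. Rgs5 in the 9 control cells was lowest at 21.0 CP10k, with a median of 179.5 and a highest value of 344. In the 5 immobilized cells it was 203, 149, 195, 108 and 125 CP10k. The immobilized cells all lay within the control range. In the remaining cells Rgs5 was 0.0257 CP10k (control) and 0.0103 (immobilized).

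Pericyte genes that the rule did not use were high in the same cells. Against the remaining cells, 1933 genes could be compared in the Rgs5-led cells (at least 15 UMIs there, or as many expected from the remaining cells). Of these, 367 (19%) were over 2-fold higher in both pools and 211 (10.9%) over 2-fold lower in both. All 13 compared genes of the 20-gene pericyte list were over 2-fold higher, with a median log2 ratio of 4.19 beside 0.27 over all compared genes. Genes rare in the remaining cells, such as Abcc9, could reach the count minimum only by being high in the Rgs5-led cells. For such genes a higher call was largely set in advance, here and in the lists below, so these counts are descriptions. Abcc9, the partner subunit of Kcnj8, stood at 7.56 CP10k in control and 11.1 in immobilized Rgs5-led cells, against 0.481 and 0.521 in the remaining cells. Steap4, a metalloreductase, was 5.73 and 16.5 CP10k, a 14.2-fold mean ratio over the pools. Cspg4, the NG2 proteoglycan, was 2.93 and 4.70 CP10k (10.1-fold) and present in 10 of 14 cells. Mcam, the adhesion molecule CD146, was 48.5-fold and Rgs4, a relative of Rgs5, 130-fold higher. A control Rgs5-led cell with endothelial transcripts held 5 of the Mcam UMIs. Mcam and Abcc9 were also found in Kcnj8-led cells with endothelial transcripts, for example 7 and 5 UMIs in 1 control cell. Pdgfrb, present in every Rgs5-led cell, was 4.64 and 12.4 CP10k against 2.03 and 2.18 in the remaining cells. Other pericyte genes were nearly absent: Vtn had 1 UMI and Higd1b 7 UMIs over the 14 cells.

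The contractile genes of smooth muscle were split among these cells. Of 9 compared genes of that list, 8 were over 2-fold higher in both pools, with a median log2 ratio of 3.52. Mrvi1, a substrate of cGMP-dependent kinase, was 102-fold higher. The list's summed level was 47.7 CP10k in control and 46.7 in immobilized Rgs5-led cells, and 14.4 in the remaining cells of either pool. Acta2, smooth muscle actin, was present in 4 of 9 control cells, at 15, 24, 5 and 13 UMIs, and in 2 of 5 immobilized cells, at 14 and 1 UMIs. The other 8 Rgs5-led cells had none. Tagln, which encodes transgelin, was present in 4 control cells and 1 immobilized cell, in part other cells than those with Acta2. Tpm1, a tropomyosin of many cell types, was lower in the Rgs5-led cells, at 6.34 and 5.71 CP10k against 9.61 and 9.46.

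Signalling genes of the vessel wall formed a further block. Of 14 compared genes for cGMP, calcium and potassium signalling, 11 were over 2-fold higher and 2 lower, with a median log2 ratio of 2.96; the list shares Abcc9, Gucy1a1 and Gucy1b1 with the pericyte list and Kcnj8 with the rule. The subunits of soluble guanylate cyclase, the nitric oxide receptor, were all high: Gucy1a1 7.63-fold, Gucy1b1 29.2-fold and Gucy1a2 390-fold. Pde3a, a phosphodiesterase that cyclic GMP inhibits, was 9.15 and 6.38 CP10k (55.5-fold). Prkg1, the cGMP-dependent kinase, was 4.02-fold and Ednra, the endothelin A receptor, 7.97-fold higher. Kcnma1, the large-conductance potassium channel, had 0 UMIs in the Rgs5-led cells and stood at 4.65 and 6.42 CP10k in the remaining cells. Pth1r, the parathyroid hormone receptor, was at 0.0855 of the remaining level.

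Among Notch genes other than Notch3, 3 of 4 compared were over 2-fold higher (median log2 ratio 2.26). These were the ligand Jag1 (6.54-fold), the receptor Notch1 (5.16-fold) and the target Heyl (4.47-fold). Notch2 stood at 0.549 and the target Hes1 at 0.744 of the remaining level. Of 6 compared PDGF and angiopoietin genes, 1 was over 2-fold higher and 2 lower. Pdgfra, the PDGF receptor of fibroblasts and marrow stroma, had 0 UMIs in the Rgs5-led cells and 2.40 and 2.64 CP10k in the remaining cells.

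Genes of the basement membrane and of a fibrillar matrix were high as well. Of 11 compared basement membrane genes, 9 were over 2-fold higher and 1 lower (median log2 ratio 2.86). Col4a1, a type IV collagen chain, was 38.9 and 60.1 CP10k against 1.65 and 1.43, and Col4a2 was 24.4-fold and Col18a1 74.5-fold higher. Lama2 was 11.2-fold and the linker Nid1 7.25-fold higher, while Sparc, a matrix protein abundant in osteoblasts, was at 0.390 of the remaining level. Mgp, matrix Gla protein, an inhibitor of calcification, was 56.2 and 150.1 CP10k against 2.11 and 3.21. Col5a3 was 47.2-fold and Col3a1 25.3-fold higher, whereas the osteoblast collagen Col1a1 was 5.25 and 4.37 CP10k against 488 and 392. Of 13 compared chains of a separate collagen list, which leaves out those of the basement membrane, 4 were over 2-fold higher and 6 lower. The transcription factors Nr2f1 and Nr2f2 were 99.6-fold and 64.1-fold higher. The long noncoding RNA Meg3 was present in 13 of 14 cells, at 10.4 CP10k for control and 6.04 for immobilized cells, with 6 and 1 UMIs in all remaining cells.

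Skeletal stromal genes were low in the Rgs5-led cells. Of 13 compared osteoblast genes, 12 were over 2-fold lower and none higher (median log2 ratio -4.20), and of 9 compared osteo-primed stromal genes 7 were lower (-3.59). Bglap and Bglap2 of the osteoblast list were held low in members by the rule, as was Cxcl12 of the CXCL12-abundant stroma list. Their part in these counts was set in advance. Ibsp, bone sialoprotein, was 0.244 and 0.336 CP10k against 63.0 and 68.6, and Tnc, tenascin C, 0.732 and 0.672 against 19.8 and 31.2. Of 15 compared genes of the CXCL12-abundant stroma, 6 were lower and 1 higher. That 1 was Ebf1, a transcription factor, at 44.4 and 41.3 CP10k (3.04-fold). Kitl, the ligand of the receptor KIT, was at 1.13 times the remaining level.

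Endothelial markers were near 0 in these cells, with 1 exception. A control cell of 26852 UMIs held 153 UMIs of the 15 endothelial markers, among them 10 of Pecam1 and 15 of Cdh5, and no other Rgs5-led cell held more than 6. Scrublet did not call it a doublet. Without it 1381 genes could be compared, with 297 (21.5%) higher and 176 (12.7%) lower. All 11 compared pericyte genes stayed over 2-fold higher (median log2 ratio 3.92), as did 8 of 9 contractile genes (3.39) and 7 of 8 basement membrane genes (3.32), and no endothelial marker reached the count to be compared. Granulocyte markers summed to 0.732 and 1.68 CP10k in the Rgs5-led cells against 45.3 and 15 in the remaining cells. Stromal transcripts were low but not absent. Osteoblast markers gave 24 to 271 UMIs per Rgs5-led cell (median 44.5), and summed to 96.1 and 108.8 CP10k against 1404 and 1038. Markers of the CXCL12-abundant stroma gave 28 to 138 UMIs (median 58), and summed to 92.3 and 73.5 CP10k against 134 and 99.7. Both sums include genes that the rule held low in members (Bglap and Bglap2, and Cxcl12). The part of stromal transcripts in the levels of these cells was not tested.

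**Figure D2:**
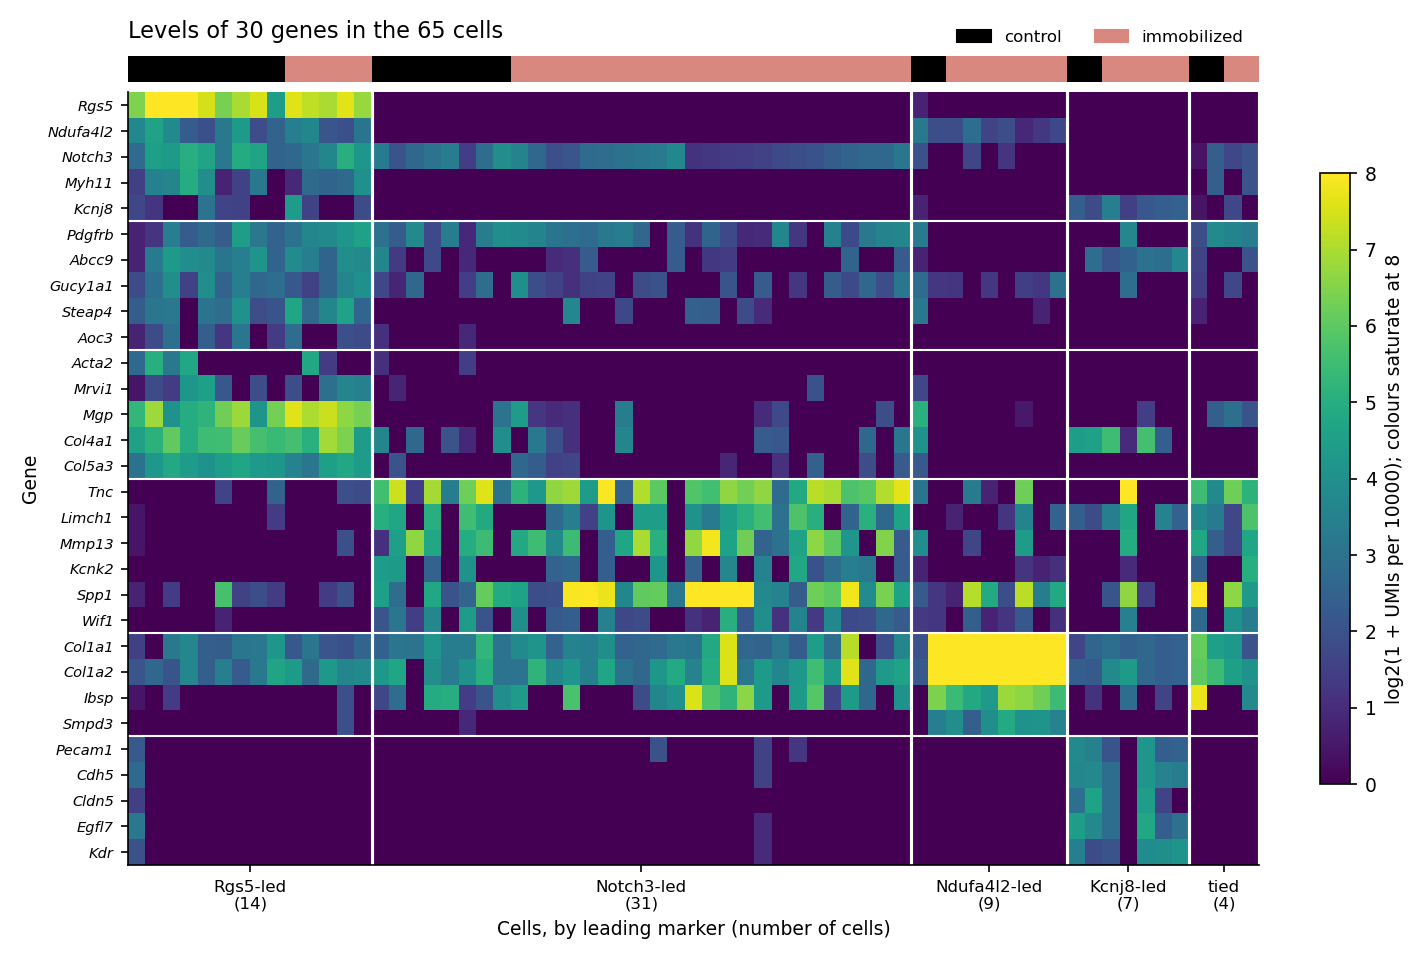
Levels of 30 genes (rows) in the 65 members (columns), as log2(1 + CP10k) with the colour scale saturating at 8; columns are grouped by leading marker. The Rgs5-led columns carry mural, pericyte and basement membrane genes together, and the other columns mostly stromal, osteoblast or endothelial genes.

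The 31 Notch3-led cells held no other marker of the rule, and 2 to 8 Notch3 UMIs each. Pericyte genes were mostly not raised in them: of 6 compared, 2 were over 2-fold higher in both pools, beside 195 of 3412 genes (5.72%) higher and 126 (3.69%) lower. Pdgfrb was one, present in 29 of 31 cells at 5.51 and 5.22 CP10k. Genes of osteo-primed stroma were the higher group, with 5 of 11 compared genes over 2-fold higher, none lower, and a median log2 ratio of 1.56. Tnc was present in 30 of 31 cells, at 90.7 CP10k in control cells and 77.1 in immobilized cells against 19.8 and 31.2. Mmp13, a collagenase, was 28.5 and 58.5 CP10k against 11.1 and 16.9. Kcnk2, a potassium channel, was 12.6 and 5.16 against 1.60 and 1.80, and Wif1, a secreted Wnt inhibitor, 8.65 and 6.59 against 2.17 and 3.04. Spp1, osteopontin, was 14.0 CP10k in control cells and 316 in immobilized cells, and 3 of the 23 immobilized cells held 2042, 1128 and 743 of its UMIs.

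Osteoblast genes were low in the Notch3-led cells. Of 14 compared, 11 were over 2-fold lower and none higher (median log2 ratio -3.14). The 14 include Bglap and Bglap2, which the rule held low in members. Col1a1 was 10.2 and 27.6 CP10k and Sparc 11 and 23.7, against 233 and 166 for Sparc in the remaining cells. Genes of the CXCL12-abundant stroma stood near the remaining level, with 4 of 16 lower, none higher and a median log2 ratio of 0.13. Cxcl12 is on that list and was held low by the rule. Notch3 itself was not limited to members: 21.2% of remaining control cells and 18.6% of remaining immobilized cells had a Notch3 UMI. Among the remaining cells at or over the Cxcl12 limit the share was 44.3%, and among those at or over the osteocalcin limit 2.64%.

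Of the 9 Ndufa4l2-led cells, 8 were rich in osteoblast collagen, with 309 to 1485 Col1a1 UMIs each. They included all 7 immobilized cells of the group. In this group 19 of 1409 compared genes (1.35%) were over 2-fold higher in both pools and 86 (6.1%) lower, and 11 of 14 compared genes of the CXCL12-abundant stroma were lower. That list includes Cxcl12, which the rule held low. Of the 20524 control UMIs of this group, 13451 came from a cell poor in Col1a1. Counts over both pools therefore do not describe the collagen-rich cells alone. An Ndufa4l2 UMI was present in 5.33% of the remaining cells and in 14.4% of those at or over the osteocalcin limit. The other cell, from the control pool, had 17 marker UMIs from 4 markers and 4 Col1a1 UMIs, with 12 UMIs of Pdgfrb and 11 of Steap4. It is the cell that makes 15 rather than 14 with the mural markers together, and unlike the Rgs5-led cells it also held 19 Mmp13 UMIs.

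Of the 7 Kcnj8-led cells, 6 carried endothelial transcripts, with at least 10 UMIs of endothelial markers each. In this group 159 of 692 compared genes (23%) were over 2-fold higher and 82 (11.8%) lower, and all 12 compared endothelial genes were higher, with a median log2 ratio of 7.19. Genes as rare in the remaining cells as these could be compared only by reaching 15 UMIs in the Kcnj8-led cells. The count of higher endothelial genes was thus largely set in advance. Cdh5, the cadherin of endothelial junctions, was 12.4 CP10k in control cells and 7.35 in immobilized cells. Cldn5, a tight junction protein, was 14.7 and 5.25, and Kdr, the VEGF receptor, 6.47 and 8.05. The immobilized levels include a cell without endothelial transcripts, which held 10868 of the 28583 UMIs. In the other immobilized cells of the group Cdh5 ran from 6.46 to 17.4 CP10k. Stab2, a scavenger receptor of sinusoidal endothelium, had 72 UMIs in the immobilized cells and 1 in the control cells. Pdgfrb was at 0 UMIs in all 6. The other cell, immobilized, had no Pecam1 or Cdh5 and instead 295 UMIs of Tnc and 13 of Pdgfrb. The 4 tied cells had 2 marker UMIs each.

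Over all 65 members, 2275 genes could be compared with the remaining cells (at least 50 UMIs in members, or as many expected), and 90 (3.96%) were over 2-fold higher in both pools and 43 (1.89%) lower. Most of the higher genes came from the Rgs5-led cells. Col5a3 was 11.3-fold higher, with 178 of 204 UMIs in Rgs5-led cells. Col4a1 was 8.16-fold higher, with 498 of 645 UMIs there and 82 in Kcnj8-led cells. Mgp was 7.53-fold higher, with 908 of 982 UMIs in Rgs5-led cells, and without those cells it was lower than in the remaining cells (log2 ratio -0.41). Gucy1b1 was 7.90-fold, Col3a1 6.79-fold and Abcc9 5.99-fold higher. Some named genes had other sources. Vcan, the proteoglycan versican, was 3.37-fold higher, with 41 of 58 UMIs in Notch3-led cells and 2 in Rgs5-led cells. Ldb2, 4.74-fold higher, had 72 of 140 UMIs in the Kcnj8-led cells. The lowest genes were the granulocyte alarmins S100a8, at 0.0487 of the remaining level, and S100a9, at 0.0622. Without the Rgs5-led cells 37 genes were higher and 25 lower.

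Immobilized and control members differed in many genes, and the make-up of the pools differed with them. Of 2224 genes with at least 30 UMIs in a pool, 214 (9.62%) were over 2-fold higher in immobilized members with an interval that left out 1, and 155 (6.97%) lower. Of 5 marker genes of the rule 4 were lower, which only describes the values that chose the members. Also lower were 5 of 9 pericyte, 6 of 8 contractile, 5 of 10 basement membrane and 8 of 9 endothelial genes. The endothelial values rested on few cells. Control members with most endothelial marker UMIs held 153, 115 and 102, the first being the Rgs5-led cell with endothelial transcripts. Immobilized members with most held 92, 85, 46, 27 and 19. Of 12 compared osteoblast genes 8 were higher and none lower, with a median log2 ratio of 1.69 beside 0.07 over all genes. Single groups of cells held most UMIs of the genes at either end. Smpd3, a sphingomyelinase of mineralizing cells, had 8 control and 133 immobilized UMIs (ratio 10.7, interval 5.28 to 25.3), 132 of the latter in Ndufa4l2-led cells. Col11a1 had 58 and 717 UMIs (7.97, 6.09 to 10.6), 689 of the latter in Ndufa4l2-led cells. Stab2 had 1 and 84 UMIs, 72 of them from Kcnj8-led cells, and Pdzrn4 had 2 and 51, all 51 from Notch3-led cells. At the lower end, Meg3 had 85 and 18 UMIs (0.137), all in Rgs5-led cells, Fabp5, a fatty acid binding protein, had 88 and 11 (0.0806), and Dmd, dystrophin, 38 and 4 (0.0679). Without the Rgs5-led cells 75 genes were lower in place of 155.

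Within the Rgs5-led cells alone fewer genes could be compared, and no gene separated the 9 control from the 5 immobilized cells without overlap. Of 391 genes with at least 30 UMIs in a pool, 12 (3.07%) were over 2-fold higher in the immobilized cells with an interval that left out 1, and 49 (12.5%) lower. The median log2 ratio over all of them was -0.28. Without the cell with endothelial transcripts, 9 of 237 were higher and 34 lower. None of the 4 compared mural markers of the rule was among them. Rgs5 had a ratio of 1.13 (1.02 to 1.26), and 0.949 (0.849 to 1.06) without that cell, so its direction rested on it. Notch3 had a ratio of 0.823 (0.548 to 1.21), and 0.641 (0.424 to 0.951) without that cell. The latter interval left out 1, but the ratio stayed within the 2-fold limit. Ndufa4l2 had a ratio of 0.711 (0.429 to 1.14), and 0.760 (0.446 to 1.26) without that cell. Kcnj8 had too few UMIs to be compared: it was 1.95 CP10k in control and 8.39 in immobilized cells, and 23 of the 25 immobilized UMIs lay in 1 cell, without which the ratio was 0.551 (0.0615 to 2.35). With all Rgs5-led cells, none of 7 contractile and none of 5 basement membrane genes passed, and 2 of 8 pericyte genes were higher. Without the cell with endothelial transcripts, 2 contractile genes passed: Mylk was lower (0.485, 0.225 to 0.958) and Crip1 higher (2.01, 1.24 to 3.28). Among pericyte genes Ednra was then lower (0.427, 0.182 to 0.897), Steap4 stayed higher and Pdgfrb no longer passed.

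Mgp, Pdgfrb and Steap4 were among the genes higher in the immobilized Rgs5-led cells. Mgp ran from 16.2 to 112 CP10k in the control cells, with a median of 38.7, and was 98.5, 129.6, 193, 80.7 and 163 CP10k in the immobilized cells. Its ratio was 2.67 (2.34 to 3.05), and 2.32 without the cell with endothelial transcripts. The highest control cells reached into the immobilized range. Pdgfrb ran from 0.745 to 21.5 CP10k in the control cells, with a median of 4.85, and was 17.4, 11.6, 7.15, 22.7 and 13.3 in the immobilized cells. Its ratio of 2.68 (1.66 to 4.33) came to 1.90 without that cell, under the 2-fold limit. Steap4 had a ratio of 2.87 (1.88 to 4.38), but 29 of its 49 immobilized UMIs lay in 1 cell, without which the ratio was 1.88 and also under the limit. Mgp stayed over the limit with each of the 14 cells left out in turn (2.21 to 2.97). Zeb1 did too (2.52 to 3.69), with a ratio over all 14 cells of 3.06 (1.76 to 5.35), and encodes a transcription factor. Both genes were named for their ratios in these same cells, and 216 of the 447 immobilized Mgp UMIs lay in 1 cell. Leaving out single cells describes these cells and says nothing of the spread among animals.

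The lower genes rested on part of the control cells. Fabp5 had 73 UMIs in 6 of 9 control cells and 1 UMI in 1 of 5 immobilized cells, and 36 of the control UMIs lay outside the cell with endothelial transcripts. Ntm, an adhesion molecule, had 49 and 4 UMIs, a ratio of 0.225 (0.0589 to 0.613), and was likewise present in 6 of 9 and 1 of 5 cells. Spp1 had 78 and 2 UMIs, 72 of them in 1 control cell. Ly6a had 40 UMIs, all in the cell with endothelial transcripts. By their sex-linked transcripts 9 of 9 control Rgs5-led cells and 4 of 5 immobilized ones were called female, while the remaining cells were 60.9% and 50.5% female; the part of sex in these values was not tested.

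**Figure D3:**
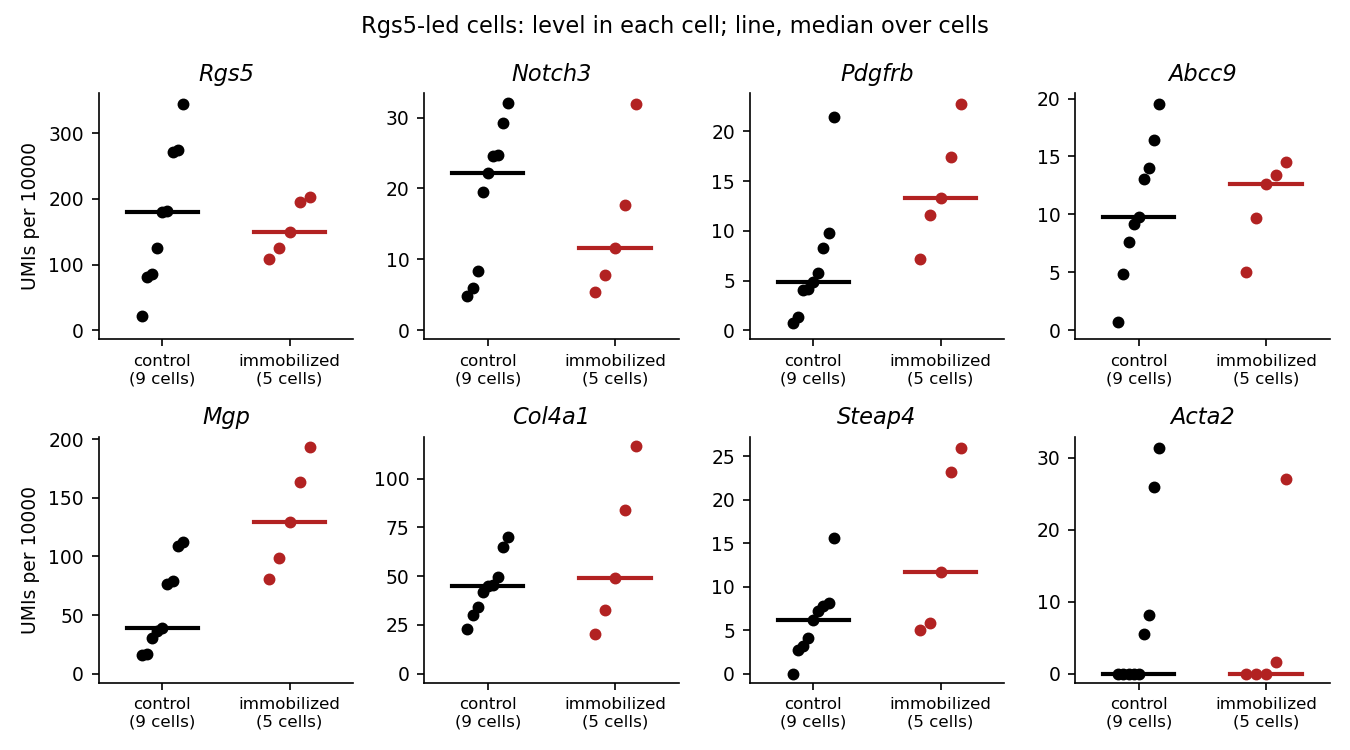
Levels of 8 genes in the Rgs5-led cells, in CP10k, for 9 control and 5 immobilized cells; each point is a cell and each line a median. The ranges overlap for Rgs5 and for Mgp, whose medians are 38.7 CP10k in control and 129.6 in immobilized cells.

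Tnfsf11 transcripts were present among the members but almost none in the Rgs5-led cells. A Tnfsf11 UMI was found in 5 of 23 control members (21.7%, 7.46 to 43.7; 10 UMIs) and in 7 of 42 immobilized members (16.7%, 6.97 to 31.4; 12 UMIs). In the remaining cells the shares were 14.1% and 18.7%. Of the 14 Rgs5-led cells 1, from the control pool, held a single UMI (7.14%, 0.181 to 33.9), an interval that holds the 16.4% of all remaining cells. Notch3-led cells held most of it, with a UMI in 3 of 8 control cells (37.5%, 8.52 to 75.5) and 7 of 23 immobilized cells (30.4%, 13.2 to 52.9). In remaining cells at or over the Cxcl12 limit the shares were 23.1% and 46.4%, both within those intervals. The Kcnj8-led cells had 0 of 7, which allows a share of up to 42.9% taken as 3 counts of the total (41.0% by the exact interval). Among remaining cells at or over the osteocalcin limit 2 of 492 had a UMI. A set of 24 remaining cells, called blood cells here, had at least 2 UMIs of granulocyte, erythroid, B lineage or leukocyte markers. They held under 2 UMIs of Cxcl12, Col1a1 and Sparc together. The B lineage list includes Ebf1, which is also on the list of the CXCL12-abundant stroma. None of the 24 had a Tnfsf11 UMI, which allows a share of up to 12.5% by the same 3 counts (14.2% by the exact interval). The blood cells were shallower, with a median of 2096 UMIs against 6155 in the members.

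The tdTomato transcript was found in 12 of 23 control members (52.2%, 30.6 to 73.2) and 16 of 42 immobilized members (38.1%, 23.6 to 54.4), against 30.2% and 33.9% of the remaining cells. In Rgs5-led cells it was present in 6 of 9 and 2 of 5 cells (57.1% of 14). It was in 13 of 31 Notch3-led cells (41.9%), 6 of 9 Ndufa4l2-led cells (66.7%) and 0 of 7 Kcnj8-led cells. In the 24 blood cells the share was 8.33%. Shares move with depth. With every cell thinned to 2000 UMIs, tdTomato was in 13.6% of control and 14.3% of immobilized members and in 11.1% and 13.8% of the remaining cells. Of the 13 blood cells deep enough to be thinned, 2 held it (15.4%, 1.92 to 45.4). The thinned share was 21.4% in Rgs5-led, 13.3% in Notch3-led and 22.2% in Ndufa4l2-led cells, so the gap to the blood cells was not kept at equal depth. Tnfsf11 was then in 13.6% and 4.76% of members and in 7.99% and 11.4% of the remaining cells. Before thinning, 3 of the 4 shares had intervals that held the share of the remaining cells of the same pool; tdTomato in control members lay just above it. After thinning all 4 did. A control member with fewer than 2000 UMIs was left out of the thinned shares.

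**Figure D4:**
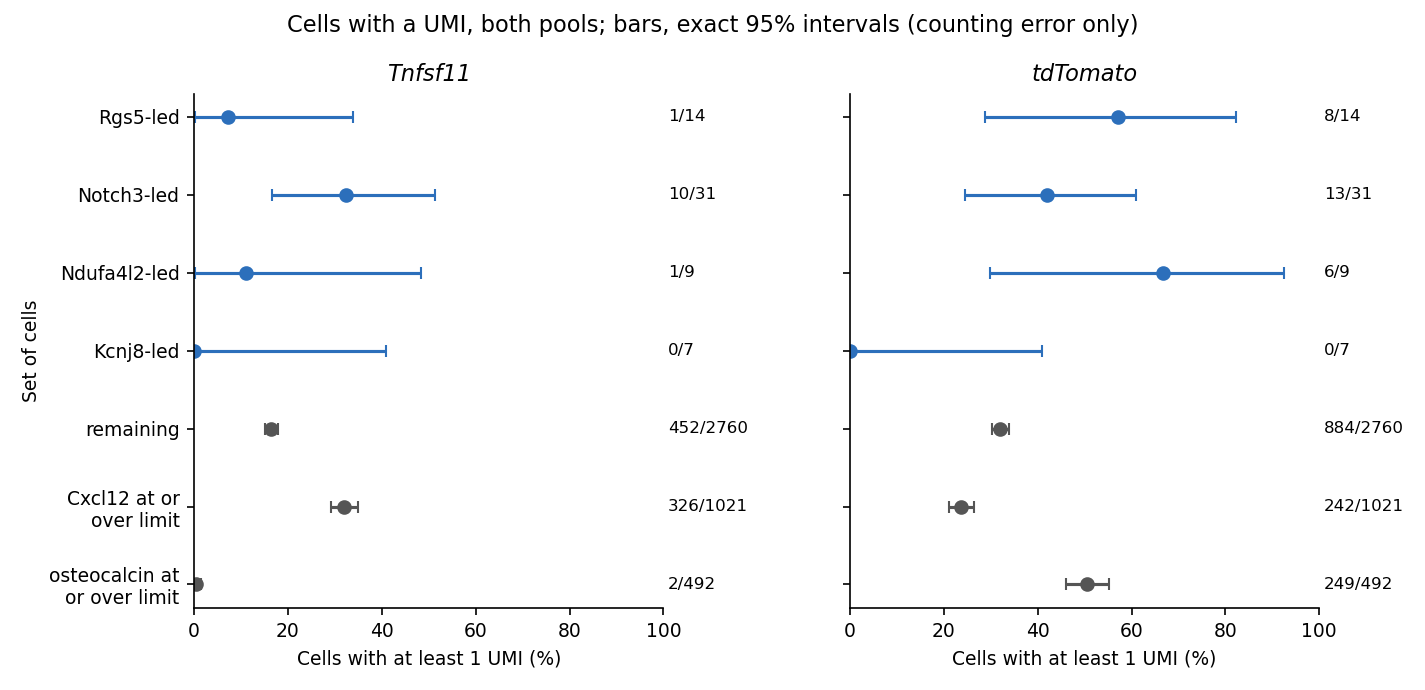
Share of cells with a UMI of Tnfsf11 and of tdTomato over both pools, in percent with exact 95% intervals as bars, for the members by leading marker (blue) and for the remaining cells as a whole and at or over the Cxcl12 or osteocalcin limit (grey). Tnfsf11 was in 1 of 14 Rgs5-led cells and 10 of 31 Notch3-led cells, and tdTomato in 8 of 14 and 13 of 31.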

How the data were processed

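The authors deposited 10x 3' gene expression matrices of UMI counts, 1 per group and lane, made with Cell Ranger 7.0.0 and mm10 per the submitters' processing notes. The 2 lanes of a group share barcodes and most UMIs and were treated as 1 library, with lane 1 used and lane 2 as an alternative. Members and gene lists were chosen with earlier results of these data known. Summed UMIs were scaled to CP10k. Against the remaining cells, genes over 2-fold in both pools were counted. Between pools, ratios over 2-fold with an exact conditional binomial interval without 1 were counted. Against a group with 0 UMIs, 3 counts stood as floor. The named-gene rule took the 30 highest and 10 lowest ratios against the remaining cells, in at least 20% of cells, and the 12 highest and lowest between pools, leaving out mitochondrial, ribosomal, sex-linked and unnamed genes and those of the rule; a part of these is printed. Doublets were called with Scrublet in scanpy 1.11.5 and not removed. Intervals came from scipy 1.17.1, and the scripts were tested on simulated data. Gene coordinates are from GENCODE.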

Additional observations from a re-analysis of the deposited data

How the results depend on the processing

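No paired analysis was possible because each group is 1 pool and its numbered libraries are lanes of that pool. The share of members depended on the rule: 3.24% of control and 6.19% of immobilized cells with both lanes summed, 11% and 10.9% with no Cxcl12 limit, 0.842% and 0.643% with at least 2 marker genes, and 0.701% and 0.357% with at least 3 (added after seeing the data). The lanes share most UMIs, so in their sum 1 marker molecule can count as 2 and meet the limit. It was 2.52% in the control with no osteocalcin limit, and in the immobilized pool 1.43% with at least 3 marker UMIs and 1.32% after thinning. Rgs5-led control cells numbered 4 under stricter limits on genes and mitochondrial UMIs per cell. Against the remaining cells, a count minimum of 10 gave 370 genes higher and 131 lower, leaving out Rgs5-led cells 37 and 25, and Rgs5-led cells alone 80 lower. Between pools, genes higher and lower were 385 and 481 with a count minimum of 10, 93 and 54 in cells called male and 12 and 49 in Rgs5-led cells alone; 30 were higher with at least 2 marker genes, and 75 lower without Rgs5-led cells. The settings that leave out or keep Rgs5-led cells, singly or together, were also chosen after seeing the data. Tnfsf11 in immobilized members was 0% with at least 2 marker genes and 4.76% after thinning. tdTomato was 58.3% of immobilized members in lane 2, and 13.6% and 14.3% of control and immobilized members after thinning. Named values that changed direction were, as log2 ratios, Mgp at -0.41 against the remaining cells without Rgs5-led cells, Pdzd2 at -0.86 in Rgs5-led cells alone, and in cells called male Zfpm2 at -1.11, Sesn1 at -0.56, Smpd3 at -0.041, Mamdc2 at -0.66, Pdzd2 at -1.24, Mrc1 at -1.39 and Slc13a5 at -1.98. The cause was not tested. Under lane 2, per-cell means and median-ratio scaling, 40 of 40 named values against the remaining cells kept their direction.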
